A study of Mus musculus with 8 samples.

Results

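The 44 collagen genes of the mouse were examined in kidney tubuloids in which Pkd2 could be inactivated with doxycycline (DOX). The genes were chosen by symbol alone, as every gene named Col followed by a number, the letter a and a number, and made up 44 of the 24063 genes in the tables. Tubuloids are tubule-like structures grown in Matrigel, here from cell fragments of postnatal day 7-10 kidneys by the sample descriptions (a younger range in the study's methods), and were cultured for 7 days with treatment for 3 days from day 3. All cultures had the genotype Pkd2fl/fl Pax8rtTA TetOCre mTmG: floxed alleles of Pkd2, a Pax8-driven tetracycline transactivator, a Cre recombinase that answers to it, and a membrane reporter that turns from red to green when Cre acts. DOX was given to 4 cultures (libraries 9, 21, 19 and 12) and the vehicle dimethyl sulfoxide (DMSO) to 4 (libraries 15, 20, 3 and 5). The controls therefore carried every allele and lacked only the inducer. The Pax8 promoter confines Cre to epithelial cells, and by the study's account the undifferentiated prestructures did not respond to DOX, which limits the model to epithelial loss of Pkd2. Nothing in the sources used here says which cultures came from separate animals, so p-values measure the spread between these libraries.

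Collagens are proteins of 3 chains wound into a triple helix. Fibrillar collagens, made mainly by stromal cells, pack into the banded fibres of the interstitium, and their accumulation is the hallmark of renal fibrosis. Basement membrane collagens form the sheet on which tubule cells and glomerular capillaries rest. Type IV collagen is its network former and type XVIII carries heparan sulfate chains and releases endostatin. The question was how both kinds were represented in tubuloids and whether DOX moved either.

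Levels are given as TPM (a measure of transcript abundance corrected for transcript length and library total) and comparisons between groups as counts normalised to the size of each library. Summed counts ranged from 63922677 to 102716313 per library. Counts were found for 13243 genes in DMSO 20 and for 13599 in DOX 19, against 17054 to 17903 in the other 6 libraries, and for 30 collagen genes in each of these 2 against 40 to 43 elsewhere. DMSO 15 and DOX 21 expressed Y-linked genes and the other 6 libraries Xist, so that each group held 1 male library. Pkd2 itself had normalised counts of 4813 to 7538 in DMSO and 4136 to 5952 in DOX libraries (log2 fold change -0.31, SE 0.215; DESeq2 adjusted p = 0.999). These counts cover the whole gene and every cell of a culture. By the study's account, the Pkd2 protein fell in tubuloids given DOX but could still be detected. Across the 8 libraries the epithelial markers (8 genes such as Epcam and Krt8) summed to 661 to 2869 TPM and the stromal markers (10 genes such as Vim and Pdgfrb) to 330.0 to 1345 TPM, so both kinds of cell were represented. The 6 endothelial markers summed to 125 to 864 TPM, nearly all of it Plvap (77.5 to 703 TPM) and Emcn (22.1 to 160.0 TPM), while Pecam1, Cdh5 and Kdr stayed at or below 0.70, 0.17 and 0.39 TPM.

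Collagen transcripts were led by a mixture of both kinds. Together the 44 genes took 0.0687% to 0.273% of all TPM. The mean over libraries was above 1 TPM for 31 genes and above 10 TPM for 14. These 14 were 5 of 11 fibrillar genes (Col3a1, Col1a2, Col1a1, Col5a1 and Col5a2), 4 of 7 basement membrane genes (Col18a1, Col4a1, Col4a2 and Col4a5), 3 of 6 type VI genes (Col6a1, Col6a2 and Col6a3), 1 of 9 fibril-associated genes (Col16a1) and Col26a1. No network or transmembrane collagen reached a mean of 10 TPM. The highest mean was 289 TPM for Col18a1, followed by 287 TPM for Col3a1. For Col18a1 this is a sum over 2 transcripts whose count totals, 259759 and 261070, were nearly the same, and the higher transcript alone had a mean of 153 TPM. Col4a5 was likewise at 29.7 TPM summed and 14.7 TPM by its higher transcript. Counted by the higher transcript alone, 30 genes were above 1 TPM and 13 above 10 TPM, since Col25a1 went from 2.92 to 0.958 TPM and Col6a3 from 16.2 to 7.5 TPM. At the other end, 6 genes had a mean below 0.1 TPM (Col9a2, Col22a1, Col28a1, Col6a6, Col6a5 and Col19a1). Counts were found in all 8 libraries for 26 genes, and 18 were at 0 in some library.

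**Figure D1:**
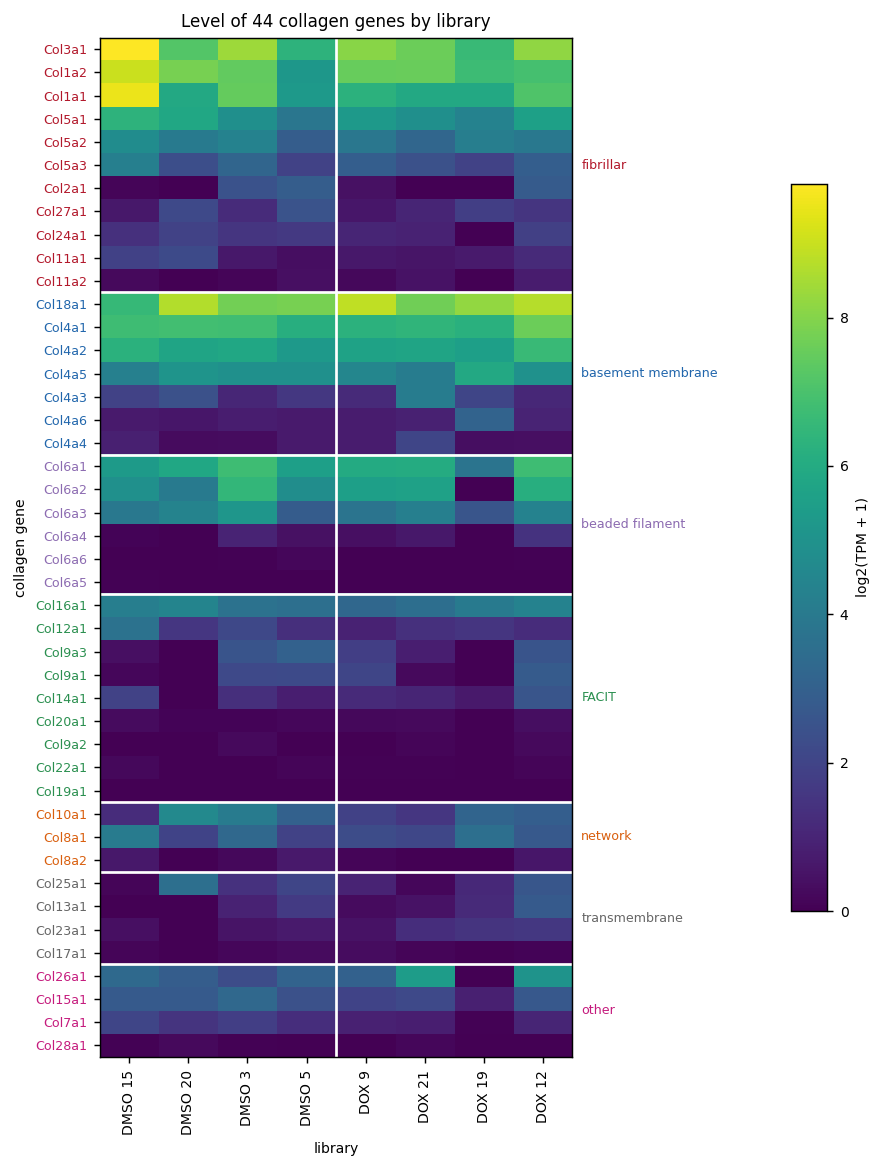
Level of each collagen gene (one line per gene, grouped and coloured by structural class) in each of the 8 libraries, as log2(TPM + 1) on the colour scale. The brightest cells lie in the upper fibrillar genes of DMSO 15 and in Col18a1, and the dark cells of Col6a2 and Col26a1 in DOX 19 mark 0 counts.

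The promoters of 4 members that recur in the results below are shown, and their motifs were not set against levels. Col1a2 and Col3a1 are the fibrillar genes with the highest mean TPM, and Col4a5 and Col4a6 lie head to head on the X chromosome and peaked in the same library. The sequences are RefSeq's on GRCm38.p6, 5′ to 3′ on the strand of the gene, taken from the 250 bases before the annotated start and stopped at the first annotated exon base. Capitals mark the CCAAT box, the TATA box (searched as TATAA) and the GC box (searched as GGGCGG) on either strand, with overlapping matches run together.
Col1a2, chr6:4505368-4505492, plus strand: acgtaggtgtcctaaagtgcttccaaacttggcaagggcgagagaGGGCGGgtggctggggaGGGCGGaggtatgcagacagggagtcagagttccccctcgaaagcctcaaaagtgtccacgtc
Col3a1, chr1:45311288-45311537, plus strand: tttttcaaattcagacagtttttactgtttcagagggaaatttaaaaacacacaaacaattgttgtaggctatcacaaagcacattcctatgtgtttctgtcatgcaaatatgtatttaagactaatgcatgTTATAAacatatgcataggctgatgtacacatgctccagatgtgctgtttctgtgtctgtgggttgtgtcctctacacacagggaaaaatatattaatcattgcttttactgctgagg
Col4a5, chrX:141475169-141475384, plus strand: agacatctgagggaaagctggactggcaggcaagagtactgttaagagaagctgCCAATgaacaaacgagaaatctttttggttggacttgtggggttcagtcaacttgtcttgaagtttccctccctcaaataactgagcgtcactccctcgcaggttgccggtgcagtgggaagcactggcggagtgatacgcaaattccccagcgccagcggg
Col4a6, chrX:141474077-141474326, minus strand: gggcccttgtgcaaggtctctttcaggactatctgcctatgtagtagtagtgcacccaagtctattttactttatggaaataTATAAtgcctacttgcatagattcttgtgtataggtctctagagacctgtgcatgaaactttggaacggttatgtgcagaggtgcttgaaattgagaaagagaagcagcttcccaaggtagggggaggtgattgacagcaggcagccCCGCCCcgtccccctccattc
The Col1a2 stretch held 2 GC boxes and the Col3a1 stretch a TATA box that reads on both strands. The Col4a5 stretch held 1 CCAAT box and that of Col4a6 a TATA box and, on the opposite strand, a GC box. Those of Col1a2 and Col4a5 stopped 125 and 34 bases before the annotated start. In the bases not printed, Col1a2 had a CCAAT box 104 bases and Col4a5 a GC box 24 bases before the start. Such matches are common: of 32851 mouse promoter windows of 250 bases, 33.8% held a CCAAT box, 22.8% a TATA box and 32.7% a GC box on either strand. The start sites of Col4a5 and Col4a6 were 1343 bases apart, and those of Col4a1 and Col4a2, on chromosome 8 and also divergent, 21 bases.

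Fibrillar collagens varied widely between cultures of one treatment. In every listing of values below, libraries are in the order 15, 20, 3 and 5 for DMSO and 9, 21, 19 and 12 for DOX. The 11 fibrillar genes summed to 2282, 511, 744 and 190.2 TPM in DMSO and to 589, 485, 306 and 622 TPM in DOX libraries. DMSO thus held both the highest and the lowest library, and all 4 DOX libraries lay between them (932 ± 928 TPM in DMSO and 501 ± 143 TPM in DOX, SD, n = 4 cultures each). Types I and III, the main collagens of loose connective tissue, made up 80.8% to 94.3% of this sum.

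Col3a1 (chr1:45311538-45349706), the single chain of type III collagen, was at 895, 145, 328 and 80.9 TPM in DMSO and at 265, 196, 99.2 and 286 TPM in DOX libraries. Col1a2 (chr6:4505618-4541543), the minor chain of type I collagen, was at 525, 220, 174 and 35.9 TPM in DMSO and at 186, 186, 105 and 121 TPM in DOX. Col1a1 (chr11:94936224-94953042), its major chain, was at 732, 60.2, 178 and 37.1 TPM in DMSO and at 78.4, 59.2, 59.3 and 136 TPM in DOX. All 3 genes were highest in DMSO 15 and lowest in DMSO 5, with the highest library 11.1, 14.7 and 19.8 times the lowest for Col3a1, Col1a2 and Col1a1. The type V genes Col5a1 and Col5a2, whose chains join type I fibrils and limit their width, had the same highest and lowest library, as had Col5a3. In all, DMSO 15 was the highest library for 6 and DMSO 5 the lowest for 7 of the 10 fibrillar genes above 1 TPM.

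The chains of type I collagen did not keep one ratio. Type I collagen holds more Col1a1 than Col1a2 chains, yet the TPM ratio of Col1a1 to Col1a2 was 1.39, 0.274, 1.03 and 1.03 in DMSO and 0.422, 0.318, 0.567 and 1.13 in DOX libraries. It was below 1 in 4 of 8 libraries, and the ranges of both groups overlapped. By contrast the ratio of Col4a1 to Col4a2, which also encode the major and the minor chain of one molecule, kept between 1.43 and 2.19.

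Contractile genes were highest in the same library, DMSO 15. The 6 smooth muscle and pericyte markers summed to 3098, 755, 341 and 143 TPM in DMSO and to 472, 346, 463 and 503 TPM in DOX libraries. In DMSO 15 the contractile genes Acta2 and Tagln stood at 1212 and 1708 TPM, and Lox, the lysyl oxidase that crosslinks fibrils, at 518 TPM against 2.28 to 32.8 TPM elsewhere. Of the 6 markers 4 peaked there (Acta2, Tagln, Cnn1 and Myh11), whereas Rgs5 peaked in DOX 21 and Notch3 in DOX 19. Stromal markers were mixed. Only 3 of 10 peaked in DMSO 15 (Vim, Thy1 and Twist2), and their sum there of 1345 TPM, the highest, held 995 TPM of Vim. Without Vim it was 350.3 TPM, below DMSO 20, DOX 21, DOX 19 and DOX 12 (383 to 568 TPM), and DMSO 5 was the lowest library with Vim (330.0 TPM) or without (239.8 TPM). The epithelial sum was lowest in DMSO 15 (661 TPM). In these bulk samples, fewer cells of a type and less RNA per cell cannot be told apart, and the part that cell makeup, or the sex of this male library, has in the collagen levels was not tested.

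The basement membrane sum spread less than the fibrillar sum among DMSO libraries, and about as much among DOX libraries. The 7 genes summed to 300.1, 617, 406 and 363 TPM in DMSO and to 613, 379, 484 and 742 TPM in DOX libraries (422 ± 137 and 555 ± 157 TPM, SD, n = 4 cultures each), and the groups overlapped. Col4a1 (chr8:11198423-11312889) was at 109, 114, 111 and 70.5 TPM in DMSO and at 77.1, 85.1, 73.6 and 195 TPM in DOX, and Col4a2 (chr8:11312805-11449287) at 75.7, 52.3, 56.8 and 38.0 TPM in DMSO and at 49.5, 51.3, 45.0 and 98.7 TPM in DOX. These genes encode the chains of the type IV network found in every basement membrane. Their highest library was 2.77 and 2.60 times the lowest, DOX 12 and DMSO 5 in each case. Only Col16a1, a fibril-associated collagen, had a smaller ratio (2.36) among the 31 genes above 1 TPM.

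Col18a1 (chr10:77052178-77166530) was at 93.0, 412, 207 and 223 TPM in DMSO and at 462, 206, 294 and 416 TPM in DOX libraries. It was lowest in DMSO 15, where the fibrillar genes were highest. Its log2 fold change was 0.51 (SE 0.441; 95% interval -0.35 to 1.38).

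The remaining type IV chains peaked in DOX 21 or DOX 19. Col4a3 and Col4a4, whose chains join that of Col4a5 in the glomerular basement membrane and are mutated in Alport syndrome, were at 2.87, 4.39, 1.08 and 1.99 TPM (Col4a3) and 0.81, 0.21, 0.26 and 0.62 TPM (Col4a4) in DMSO. In DOX they were at 1.25, 16.5, 3.09 and 1.11 TPM (Col4a3) and 0.69, 3.14, 0.27 and 0.31 TPM (Col4a4). Both were highest in DOX 21. Podocytes are the cells that make these chains in the glomerulus, and Podxl, the podocalyxin gene of podocytes, was also at 42.3 TPM in DOX 21 against at most 12.3 TPM elsewhere. The 5 podocyte markers reported here summed to 328 TPM in DOX 21, to 48.9 to 168 TPM in DMSO and to 49.5 to 155 TPM in the other DOX libraries, while Nphs1, the nephrin gene, was at 0.94 TPM in DOX 21 and at most 0.20 TPM elsewhere. Wt1, another podocyte gene, was highest in DMSO 20 (41.9 TPM against 34.8 TPM in DOX 21). DOX 21 also had the highest endothelial sum (864 TPM), but only Plvap and Emcn of the 6 markers peaked there, with Pecam1 and Kdr highest in DMSO 5 and Cdh5 and Tek in DOX 12. The part of cell makeup, or of sex in this male library, in the levels of Col4a3 and Col4a4 was not tested. Without DOX 21 the log2 fold change of Col4a3 went from 1.07 to -0.54 and that of Col4a4 from 1.15 to -0.26.

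Col4a6 (chrX:141165403-141474095), which with Col4a5 forms the type IV network of Bowman's capsule and collecting ducts, was at 0.61, 0.52, 0.72 and 0.64 TPM in DMSO and at 0.69, 0.86, 7.70 and 0.96 TPM in DOX. Its neighbour Col4a5 (chrX:141475370-141689236) was at 18.5, 33.1, 29.2 and 29.0 TPM in DMSO and at 21.9, 16.3, 59.8 and 29.8 TPM in DOX. Both genes were highest in DOX 19, Col4a6 far above a narrow band of 7 libraries and Col4a5 less than 2 times above the next one. The log2 fold change of Col4a6 was 2.00 (SE 0.840) with all libraries and 0.29 without DOX 19, 1 of the 2 libraries with few genes detected. DESeq2 gave no p to Col4a6 because its filter on single extreme libraries (Cook's distance) left it out.

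**Figure D2:**
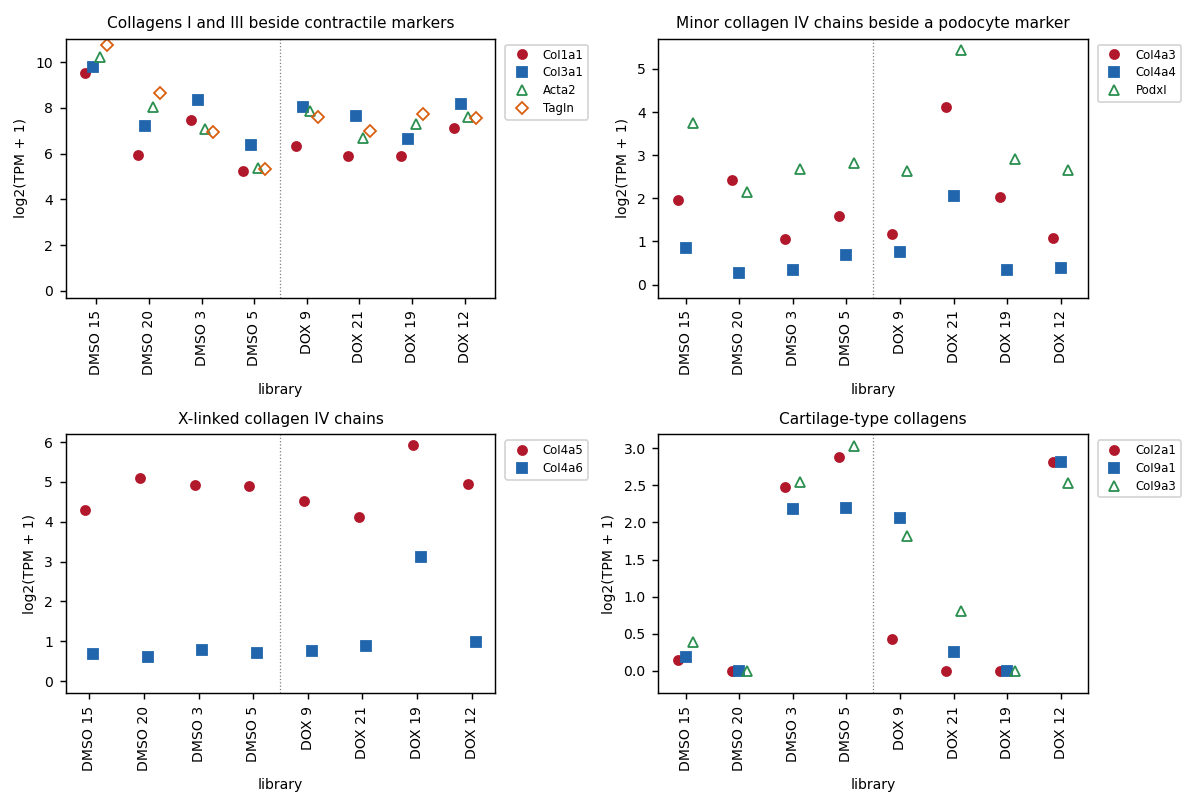
Level of selected genes in each library as log2(TPM + 1), with 4 DMSO libraries left and 4 DOX libraries right of the dotted line. Points show Col1a1 and Col3a1 beside Acta2 and Tagln (highest in DMSO 15), Col4a3 and Col4a4 beside Podxl (highest in DOX 21), Col4a5 and Col4a6 (highest in DOX 19), and Col2a1, Col9a1 and Col9a3 (at 0 in DMSO 20 and DOX 19).

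The balance of both kinds was compared next. The ratio of the fibrillar to the basement membrane TPM sum was 7.60, 0.827, 1.83 and 0.524 in DMSO and 0.961, 1.28, 0.632 and 0.839 in DOX libraries. It was highest in DMSO 15, which had the highest fibrillar and the lowest basement membrane sum. On the log2 scale it averaged 0.65 ± 1.69 in DMSO and -0.15 ± 0.42 in DOX (SD, n = 4 cultures each), a difference of -0.80 that was smaller than the spread between DMSO cultures. The sign of the balance depended on the isoforms counted: with only the higher transcript of each gene the log2 ratio averaged 1.12 ± 1.56 in DMSO and 0.41 ± 0.39 in DOX, and turned from negative to positive in DMSO 20 (0.33), DOX 9 (0.62) and DOX 12 (0.22), with a group difference of -0.72. Without DMSO 15 the difference was -0.04, and without both libraries with few genes detected it was -0.94. Fibrillar genes held 83.4% of collagen TPM in DMSO 15 and 27.7% to 51.3% in the other libraries, and basement membrane genes 11.0% in DMSO 15 and 28.0% to 57.0% in the others.

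**Figure D3:**
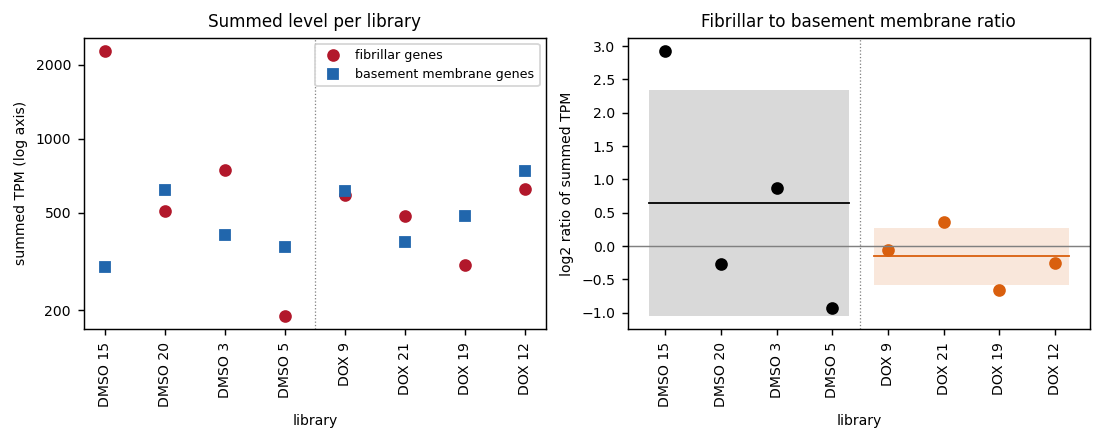
Left, summed TPM (log axis) of the 11 fibrillar (circles) and 7 basement membrane (squares) collagen genes in each library; right, log2 of their ratio, with the group mean (line) and 1 SD to each side (band) for 4 DMSO (black) and 4 DOX (orange) libraries. DMSO spans -0.93 to 2.93 and DOX lies inside that range, from -0.66 to 0.36.

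No collagen gene was called changed with DOX. The call rule, an adjusted p of at most 0.05 in DESeq2's Wald test and a change of at least 1.5-fold, was passed by 25 of 17011 genes (0.147%) and by 0 of 42 collagen genes with an adjusted p. edgeR called 0 collagen genes as well. At an unadjusted p under 0.05, 4 of 43 collagen genes were lower with DOX (9.3%), where 2.47% of all 19268 genes with a p were lower at that level, and 0 of 43 were higher, where 2.2% of all genes were. This 0 depended on DESeq2's filter on single extreme libraries, which left Col4a6 without a p: with the filter off, 5 collagen genes were under 0.05, the added one being Col4a6 on the higher side (DESeq2 adjusted p = 0.717). With edgeR, 2 of 38 collagen genes had an unadjusted p under 0.05 (5.26%, against 3.06% of all genes). The median log2 fold change was -0.57 over the 44 collagen genes, of which 29 were lower and 15 higher, and -0.08 over the 19634 genes with a fold change, of which 55.5% were lower. Without DMSO 15 the collagen median was -0.09 and 1 collagen gene, Col10a1, had an unadjusted p under 0.05. The share of all genes under 0.05 was not computed for that refit, nor with the filter off.

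The 4 genes with a lower level at an unadjusted p under 0.05 were Col12a1, Col7a1, Col1a1 and Col15a1. Col12a1 (chr9:79598987-79721141), a collagen that decorates type I fibrils, had normalised counts of 6701, 873, 1824 and 654 in DMSO and 443, 780, 930 and 558 in DOX libraries. DMSO 15 and DMSO 3 lay above all DOX libraries, and the other 2 DMSO libraries among them. The log2 fold change was -1.89 (SE 0.727; DESeq2 unadjusted p = 0.00928, adjusted p = 0.624), and the exact two-sided permutation p over the 70 assignments of libraries was 0.143. Without DMSO 15 the log2 fold change was -0.72.

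Col7a1 (chr9:108953586-108984875), which forms the anchoring fibrils of skin and other stratified epithelia, had normalised counts of 1392, 644, 1111 and 479 in DMSO and 340, 294, 14.7 and 317 in DOX libraries. All 4 DOX libraries lay below all 4 DMSO libraries. The log2 fold change was -1.91 (SE 0.799; DESeq2 unadjusted p = 0.0169, adjusted p = 0.771; exact permutation p = 0.0286, the smallest that 4 against 4 libraries allow). It ranged from -2.12 to -1.51 when each library was left out in turn. Col7a1 was the 1 collagen gene of 39 with a mean normalised count of at least 10 whose groups did not overlap on the lower side (2.56%), where 1.16% of all 15928 such genes did not, and 0 of 39 were on the higher side, where 1.76% of all genes were. At a mean of 1.46 TPM it was a low transcript in these cultures.

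Col1a1 had normalised counts of 163258, 11046, 39405 and 6448 in DMSO and 15388, 11591, 11923 and 22109 in DOX libraries. Its log2 fold change of -1.85 (SE 0.871; DESeq2 unadjusted p = 0.0335, adjusted p = 0.873; exact permutation p = 0.600) rested on DMSO 15, without which it was -0.31. Col15a1 (chr4:47207655-47313167), a relative of Col18a1 that lies between basement membranes and interstitial fibres, had normalised counts of 1499, 1225, 2242 and 861 in DMSO and 643, 775, 186 and 1019 in DOX. Only DOX 12 reached into the DMSO range, above DMSO 5. The log2 fold change was -1.15 (SE 0.547; DESeq2 unadjusted p = 0.0351, adjusted p = 0.874; exact permutation p = 0.0571), with a range of -1.45 to -0.84 when single libraries were left out.

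**Figure D4:**
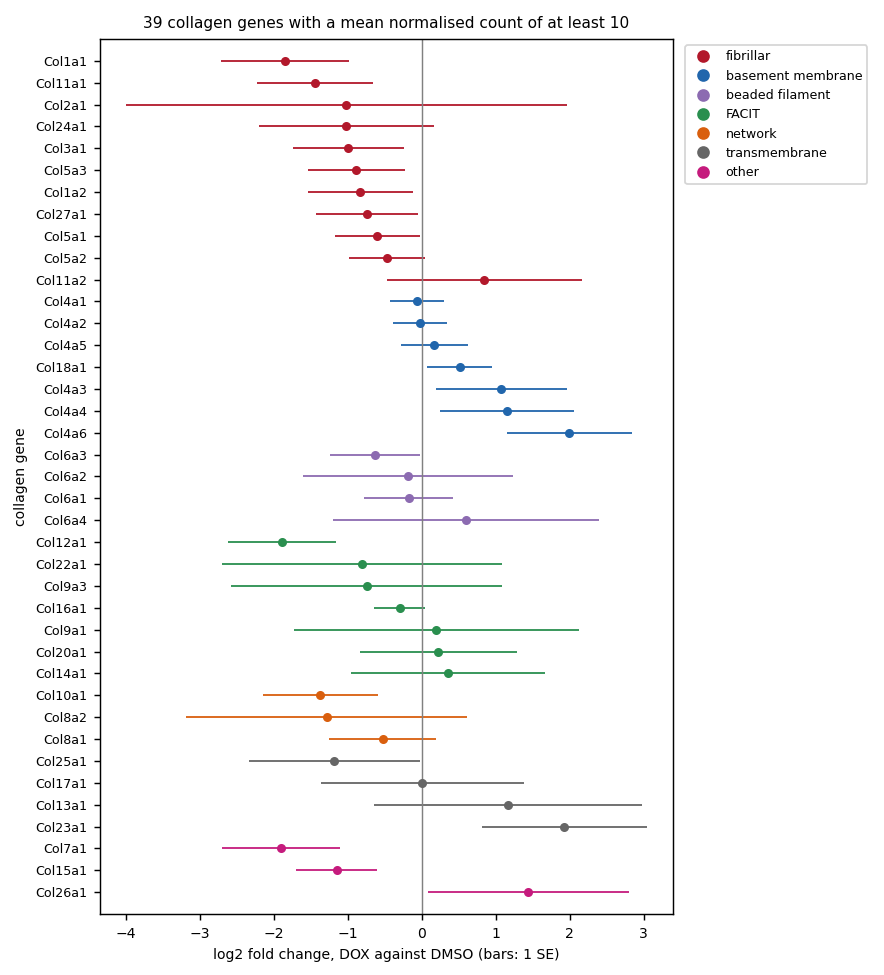
Log2 fold change of DOX against DMSO (points) with 1 SE to each side (bars) from DESeq2 for the 39 collagen genes with a mean normalised count of at least 10, grouped and coloured by structural class. Fibrillar genes lie mostly left of 0 and basement membrane genes at or right of 0, with long bars for Col2a1, Col9a1 and Col9a3, and no gene passed the call rule.

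By class, 10 of 11 fibrillar genes had a negative fold change, with a median of -0.89 on the log2 scale, and 2 of 7 basement membrane genes, with a median of 0.51. Without DMSO 15 the fibrillar median was -0.09, with 8 of 11 genes lower, and the basement membrane median 0.28, with 0 of 7 lower. Without DMSO 5 the fibrillar median was -1.07. There, 7 of the 11 genes had a DESeq2 unadjusted p under 0.05, against 1 with all libraries. The share of all genes under 0.05 without DMSO 5 was not computed, so this count has no background beside it. Without DOX 21 the basement membrane median was 0.03, with 2 of 7 lower. With limma-voom the basement membrane median was 0.15 and the fibrillar median -0.48. Col3a1 and Col1a2 had log2 fold changes of -0.997 (SE 0.752) and -0.83 (SE 0.716), which became 0.06 and 0.01 without DMSO 15. Among the basement membrane genes the estimates closest to 0, with the smallest errors, were those of Col4a1 (-0.07, SE 0.367; 95% interval -0.79 to 0.65) and Col4a2 (-0.03, SE 0.361; 95% interval -0.73 to 0.68), which leave room for a change of 1.5-fold either way.

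Type VI chains form the beaded microfibrils around most cells. The 3 genes above 1 TPM, Col6a1, Col6a2 and Col6a3, were highest in DMSO 3 and lowest in DOX 19. Col6a1 (chr10:76708792-76726044) was at 39.7, 56.0, 107 and 45.3 TPM in DMSO and at 62.2, 64.8, 12.7 and 107 TPM in DOX libraries. Col6a2 (chr10:76595756-76623630), its neighbour, was at 29.1, 15.6, 89.7 and 27.0 TPM in DMSO and at 46.0, 48.0, 0 and 69.5 TPM in DOX. The absence of any count for Col6a2 in DOX 19, where 3 counts would have been 0.0399 CPM, the library-scaled count, stood beside 12.7 TPM of Col6a1 and 5.07 TPM of Col6a3 in that library. The fold changes of Col6a1 and Col6a2 were -0.18 (SE 0.604) and -0.19 (SE 1.42) on the log2 scale. With limma-voom they were -0.31 and -2.14.

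Genes listed at 0 clustered in the same 2 libraries. DMSO 20 and DOX 19 had 14 collagen genes at 0 each, and the other libraries 1 to 4. Among genes above 1 TPM on average, Col6a2, Col26a1, Col24a1, Col2a1, Col9a1 and Col9a3 were at 0 in DOX 19, and Col14a1, Col13a1, Col2a1, Col9a1 and Col9a3 in DMSO 20. Col2a1, Col9a1 and Col9a3, chains of the cartilage fibril that are named here after their values were seen, were at 0 in both. Col2a1 was at 0.11, 0, 4.56 and 6.37 TPM in DMSO and at 0.34, 0, 0 and 6.07 TPM in DOX. Col9a1 was at 0.13, 0, 3.52 and 3.58 TPM in DMSO and at 3.18, 0.19, 0 and 6.03 TPM in DOX, and Col9a3 at 0.30, 0, 4.85 and 7.20 TPM in DMSO and at 2.52, 0.75, 0 and 4.81 TPM in DOX. All 3 were above 3 TPM in DMSO 3, DMSO 5 and DOX 12, but in DOX 9 Col2a1 stood well below the other 2. The other chains of that fibril were mixed. Col11a2 was also lowest in DMSO 20 and DOX 19 (0.0059 and 0.0047 TPM) and highest in DOX 12 (0.66 TPM). Col9a2 was at 0 in DMSO 20 and DOX 19, but in DMSO 15 and DMSO 5 as well, and at most 0.19 TPM elsewhere. Col11a1 was highest in DMSO 20 (3.60 TPM) and lowest in DMSO 5 (0.30 TPM).

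The other classes held genes with large differences between cultures and wide errors. Col26a1 was at 9.25, 6.51, 3.91 and 7.80 TPM in DMSO and at 7.30, 42.0, 0 and 32.0 TPM in DOX libraries (log2 fold change 1.44, SE 1.36), so that DOX held both extremes. Col10a1, the network collagen of hypertrophic cartilage, was at 1.40, 23.2, 15.7 and 7.15 TPM in DMSO and at 2.70, 1.96, 8.001 and 6.54 TPM in DOX (-1.37, SE 0.780). It lies inside the gene Nt5dc1, and the exons of both share 18 bases on opposite strands, where reads may be shared. Col8a1, a network collagen of vessel walls and Descemet's membrane, ranged from 2.82 to 15.9 TPM in DMSO and from 3.23 to 11.0 TPM in DOX (-0.53, SE 0.722). The membrane-spanning collagens Col25a1 and Col13a1 were at 0.10 to 11.0 TPM and 0 to 2.20 TPM in DMSO and at 0.12 to 5.22 TPM and 0.21 to 5.83 TPM in DOX. Col16a1 kept within narrower limits, at 11.0 to 20.5 TPM in DMSO and 8.69 to 19.2 TPM in DOX (-0.30, SE 0.343).

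Genes that make, process and bind collagen were examined beside the chains. Of 54 such genes, DESeq2 gave an adjusted p to 52 and called 0 of them (0.147% of all genes were), and 0 of 53 with a p were under 0.05 unadjusted (4.67% of all 19268 genes with a p were). edgeR had 1 of 52 under 0.05, the crosslinking gene Lox, to which DESeq2 gave no p. The fold changes of the 54 genes were negative for 38 and positive for 16, where 55.5% of all genes were lower. Among 19 genes of chain hydroxylation and folding, 9 had negative and 10 positive values (median log2 fold change 0.04). They were led by Serpinh1, the collagen chaperone HSP47 (1945 to 4461 TPM), P4hb, a subunit of prolyl 4-hydroxylase (350.3 to 1201 TPM), and Ppib, a prolyl isomerase (402 to 793 TPM). Serpinh1 thus exceeded every collagen gene in every library.

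Of 8 genes of procollagen processing 7 had negative fold changes (median -0.30), with Bmp1, the C-propeptide protease, at 143 to 277 TPM, its enhancer Pcolce at 42.8 to 236 TPM and Adamts2 at 0 to 11.9 TPM. Negative values were found for 5 of 7 crosslinking genes (median -0.22), and besides Lox the highest were Pxdn, the peroxidasin that bonds type IV collagen (43.6 to 94.2 TPM), and Tgm2 (11.6 to 76.7 TPM). The log2 fold change of Lox in DESeq2 was -3.81 (SE 1.25). Lox was at 518 TPM in DMSO 15, and its DOX values (7.79 to 16.7 TPM) lay within those of the other DMSO libraries (2.28 to 32.8 TPM). The same held for 8 of 9 receptor genes (median -0.03), led by the integrin chain Itgb1 (318 to 767 TPM), the discoidin receptor Ddr1 (84.0 to 190.4 TPM) and Mrc2 (12.6 to 56.5 TPM).

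Partners of fibrils and of basement membranes were also measured. The 6 fibril partners had negative fold changes (median -0.85), 0 of them at an unadjusted p under 0.05, where 55.5% of all genes had a negative one. Their sum in DMSO libraries, 547 to 3063 TPM, spanned the 1499 to 1575 TPM of the DOX libraries, with Fn1 at 463 to 2311 TPM, Bgn at 62.6 to 405 TPM and Dcn, the fibril-binding proteoglycan decorin, at 195, 0, 40.2 and 4.02 TPM in DMSO and 75.8, 26.6, 5.90 and 17.6 TPM in DOX libraries. Fn1 and Bgn were highest in DMSO 15 and lowest in DMSO 5, as Col1a1 and Col3a1 were. Of 5 basement membrane partners 3 had negative fold changes (median -0.003), with Sparc at 948 to 4205 TPM, Nid1, which links laminin to type IV collagen, at 44.4 to 224 TPM and Agrn at 15.2 to 55.5 TPM. Of 37 cell type markers with an adjusted p 0 were called by DESeq2, and of 38 with a p Tagln and Myh11, both lower with DOX, were under 0.05 unadjusted (edgeR had 0 of 36). The fitted fold changes were negative for 8 of 8 epithelial markers (Pax8 at -0.002), 5 of 10 stromal, 4 of 6 smooth muscle, 5 of 5 macrophage, 0 of 5 podocyte and 2 of 6 endothelial markers, where those of 55.5% of all genes were. Their part in the fold changes of the collagens was not tested.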

How the data were processed

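RNA from 8 tubuloid cultures (4 DOX, 4 DMSO, grouped by sample title) was sequenced from poly-A selected SMART-Seq v4 libraries. The authors aligned reads with STAR and counted them with featureCounts on mm10, per the labels, and the versions were not given in the sources used here. The files give, for each RefSeq transcript, a deposited count (whole reads, unscaled), a deposited FPKM (the count corrected by the authors for length and depth, used here only to read transcript lengths) and a deposited TPM (the same values brought by the authors to one total in all libraries).

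Counts and TPM were summed by gene symbol. Reads shared by isoforms appeared in the count of each isoform, so sums over several transcripts (8 of 44 collagen genes) are inflated. Exons of Col4a3 shared 274 bases with C430014B12Rik and those of Col9a3 234 bases with Tcfl5, each on the opposite strand. Such reads cannot be told apart without strand. Exons of Col3a1 shared 141 bases with Gm47302 on the same strand. Gene coordinates and promoters are RefSeq's on GRCm38.p6 (44 and 35 of 44 genes matched).

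All genes were tested with DESeq2 1.42.0 in R 4.3.3 (Wald test, Cook's filter, independent filtering at 0.1, Benjamini-Hochberg adjustment), with edgeR 4.0.16 (quasi-likelihood, TMM) beside it. Intervals are Wald intervals of 95%. Library numbers were not shared between groups, so the design was unpaired. Single genes were also compared by exact two-sided permutation over 70 assignments, on log2(normalised count + 1). Class sums and medians were described without a test. The genes described one by one were all basement membrane members, the 6 fibrillar members with the highest mean TPM, the 2 highest above 1 TPM in each other class, members at an unadjusted p under 0.05 or without overlap, and the 3 highest of each partner list. Col2a1, Col9a1 and Col9a3, with Col9a2, Col11a1 and Col11a2 beside them, fall outside this rule and were added after their values were seen. The members, lists and this rule were chosen with earlier results of these data known. A gene of the podocyte marker list is not reported here. The scripts were tested on simulated data. Alternatives were edgeR, limma-voom (limma 3.58.1), TMM scaling, count filters, both DESeq2 filters off, 1 transcript per gene, other class definitions and leaving out libraries.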

Additional observations from a re-analysis of the deposited data

Results flagged for a closer look

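Each of the groups of 4 libraries was screened, for the collagen genes described one by one (Col2a1, Col9a1 and Col9a3 included), for a single library far from the other 3 in log2(normalised count + 1), by the gap to its nearest neighbour as a share of the group's whole range (Dixon's test at 95%). Of 54 groups, 4 passed, all of them DOX groups, where chance gives about 2.7.

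Col4a1 in DOX 12 stood at 15.44 against 14.52 in the nearest and 14.35 in the farthest DOX library, a gap of 0.843 of the range. Col4a2 was highest in the same library. Col4a6 in DOX 19 stood at 11.10, with the other DOX libraries from 7.59 to 7.90, a gap of 0.913 of the range. Col6a2 in DOX 19 was at 0 against 12.81 to 13.13 elsewhere (0.975 of the range), and Col7a1 in DOX 19 at 3.97 against 8.20 to 8.41 (0.953 of the range). Of these 4 gaps, 3 lay in DOX 19, which together with DMSO 20 had the fewest genes detected, and the part of detection in these gaps was not tested.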

How the results depend on the processing

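Under all alternatives run, 0 collagen genes were called. The number at an unadjusted p under 0.05 was 4 with DESeq2, 2 with edgeR and 2 with limma-voom. Without both DMSO 20 and DOX 19 it was 8, and with single libraries left out it was 1 to 10. It was 1 without DMSO 15 or DMSO 3, 2 without DOX 9 or DOX 21, and 10 without DMSO 5, 7 of these fibrillar. For limma-voom and for fits with libraries left out, the share of all genes under 0.05 was not computed. Those counts therefore have no background beside them. The median log2 fold change of -0.57 kept its sign, from -0.70 to -0.09 with single libraries left out, and was -0.29 with limma-voom (38 genes). The group difference in the log2 ratio of fibrillar to basement membrane TPM (-0.80) ranged from -1.33 without DMSO 5 to -0.04 without DMSO 15, and was -0.45 without both, an alternative chosen after the data were seen. The count of collagen genes without overlap (1) ranged from 1 to 3 with single libraries left out. It was 3 without DMSO 5, 3 without DOX 12 and 2 without DOX 9. With a library left out, groups separate more easily by chance, and the share of all genes without overlap was not computed for these settings. Of 405 fold changes recomputed for 24 named collagen genes, 29 in 13 genes changed sign, and the cause was not tested. With limma-voom these were Col4a2 (0.018), Col4a5 (-0.018) and Col26a1 (-0.72), and without both DMSO 20 and DOX 19 Col4a1 (0.064), Col4a5 (-0.32), Col6a1 (0.082) and Col25a1 (0.21). Leaving out single libraries gave ranges of -0.40 to 0.051 for Col4a1, -0.25 to 0.23 for Col4a2, -0.54 to 1.43 for Col4a3, -0.26 to 1.66 for Col4a4, -0.39 to 0.38 for Col4a5, -1.34 to 0.060 for Col3a1, -1.20 to 0.0076 for Col1a2, -0.47 to 0.32 for Col6a1, -0.48 to 0.67 for Col6a2, -1.08 to 0.18 for Col8a1, -2.30 to 0.067 for Col25a1 and -0.25 to 2.25 for Col13a1. DMSO 20 and DOX 19 each had 14 collagen genes at 0 counts, with 63922677 and 75138237 counts in all, against 3 in DMSO 5 with 70505265 counts, and the cause was not tested.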
